A study of Mus musculus with 2 samples.

Results

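Among the repeats of the mouse genome counted in mitotic chromatin, 7 of 952 repeat types belonged to the betaretrovirus-like ERVB and MMTV group. They were chosen by name: rows starting with ERVB, except ERVB7, or with MYSERV, MMTV or MMERVK9. The ERVB prefix gave 6 rows, MMTV gave 1, and MYSERV and MMERVK9 gave 0 in the tables used here, so the group is called ERVB and MMTV below. The 6 ERVB rows were long terminal repeats (LTRs) and the only internal row was MMTV-int. The rule uses names and no measured value, although it was written with earlier results of these data known, and all 7 rows had at least 100 input reads, the minimum for analysis that 704 of the 952 repeat types met.

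The ChIP group was 1 chromatin immunoprecipitation sample made with an antibody to H3.3S31ph, the form of histone H3.3 that carries a phosphate on serine 31, and the input group was 1 sample of sheared chromatin with no antibody. Both came from wild-type 129S1/SvImJ mice, as embryonic stem (ES) cells at a passage number under 20. The cells were arrested for 12 hours with RO-3306 at 9 µM, which blocks CDK1, the kinase that drives entry into mitosis, and were collected in mitosis 11 hours after its removal. Each library was read in 2 sequencing lanes, which are runs of one library and no biological replicates.

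An endogenous retrovirus is the inherited copy of a retrovirus that once infected the germ line. A complete copy has an internal part, which encodes the viral proteins, between 2 LTRs, which carry the promoter and the polyadenylation signal. Recombination between the LTRs of a copy leaves a solo LTR, the most common remnant of many families. MMTV, the mouse mammary tumor virus, is a betaretrovirus that is also inherited through the germ line of many mouse strains, and the ERVB families are related to betaretroviruses in sequence. H3.3 is a histone H3 variant deposited outside of DNA replication, and in ES cells it is laid down at several families of endogenous retroviruses. Its serine 31 is absent from the canonical H3 histones and is phosphorylated in mitosis.

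Over both lanes, the ChIP had 12235477 reads in the tables and the input 8856751. The ERVB and MMTV rows had 13495 ChIP reads, which is 0.110% of the table (0.108 to 0.112), against 10632 input reads, which is 0.120% (0.118 to 0.122). These brackets, and every bracket below, are 95% exact intervals unless another kind is named. They cover counting error only, and reads amplified without molecular identifiers are not independent molecules. With 1 sample in each group no difference has a replicate check, and no test between ChIP and input was possible.

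As a group, the ERVB and MMTV rows were slightly less frequent in the ChIP than in the input, while their ratio was slightly above that of the bulk of repeats. Their pooled ratio, the share of ChIP reads over the share of input reads, was 0.919 (0.896 to 0.943). The median ratio of all 704 analysed repeats was 0.805. Set against this median repeat, the pooled ratio of the group was 1.14 (1.11 to 1.17). The direction against input therefore depended on the scale between the libraries, and the pooled log2 ratio of -0.12 turned positive on each of 4 other scales tried. The median log2 ratio over the 7 rows was -0.13, and over all 704 analysed repeats it was -0.31.

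The 7 rows did not behave alike, and ERVB4_2-LTR_MM stood apart from the other 6. Of the 7 rows, 1 had an interval above 1, where 7.81% of all analysed repeats did. An interval below 1 was found for 5 rows, where 79.5% of all analysed repeats had one. Set against the median repeat, 4 rows had an interval above it, where 27.3% of all analysed repeats did, and 0 had one below it, where 19.2% did. A ratio at least 1.2 times that of the median repeat was reached by 2 rows, ERVB4_2-LTR_MM and ERVB3_1-LTR_MM, where 14.3% of all analysed repeats reached it. No row was as low as the median divided by 1.2, a level at or under which 4.4% of all analysed repeats lay. The rows are few and some belong to one family, so these counts describe the group and no more.

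**Figure D1:**
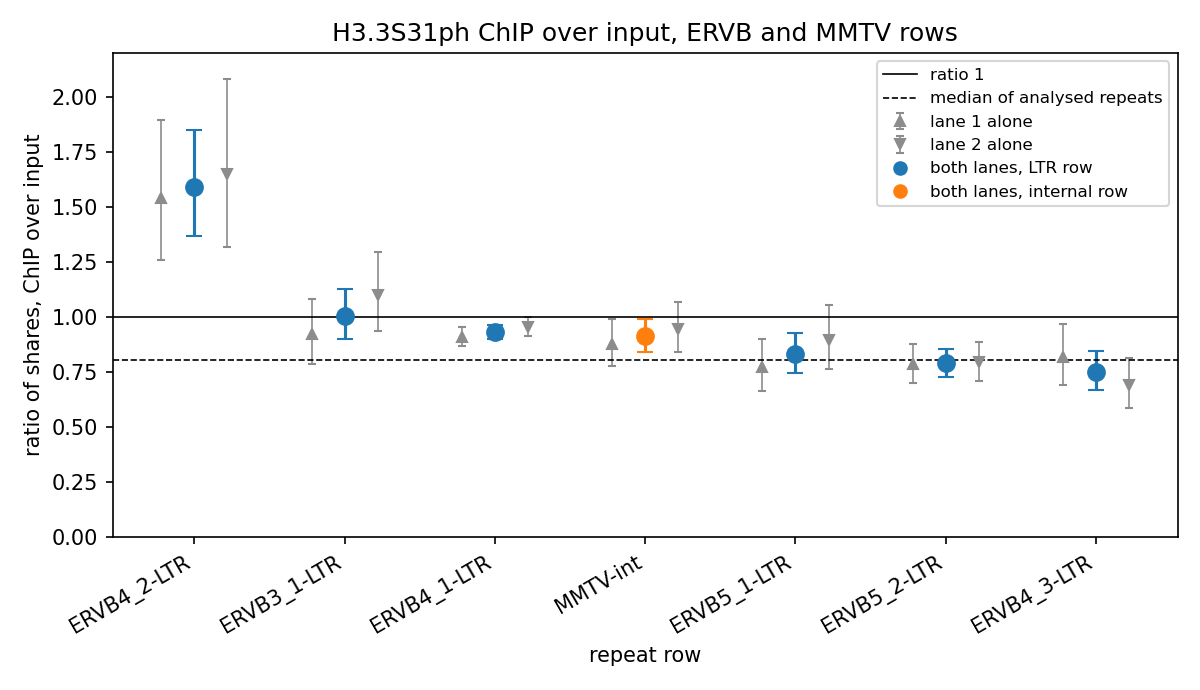
Ratio of the share of ChIP reads to the share of input reads (vertical axis, no unit) for the 7 ERVB and MMTV rows, from the highest to the lowest. Circles are both lanes together, triangles single lanes, bars 95% counting intervals, the solid line a ratio of 1 and the dashed line the median of 704 analysed repeats at 0.805. ERVB4_2-LTR_MM at 1.59 lies above both lines in each lane, and with both lanes together the other 6 rows lie between 0.752 and 1.01.

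The ERVB4 family is represented by 3 LTR rows, and over both lanes these held both the highest and the lowest ratio of the group. ERVB4_2-LTR_MM had 304 ChIP reads against 142 input reads in lane 1, and 254 ChIP reads against 112 input reads in lane 2. Its ratio was 1.54 (1.26 to 1.89) in lane 1 and 1.65 (1.32 to 2.08) in lane 2, so it lay above the input level in each lane. Over both lanes, 558 ChIP reads against 254 input reads gave a ratio of 1.59 (1.37 to 1.85). At the ratio of the median repeat, 254 input reads would have been matched by 282 ChIP reads, so the count was 1.98 times (1.70 to 2.30) that level. Only 10 of 704 analysed repeats had a higher ratio. It was also the least abundant row of the group, ranking 597th of 704 by input reads, and its interval was the widest.

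ERVB4_1-LTR_MM was by far the most abundant row, with 61.7% of the ChIP reads of the group and 60.8% of its input reads. It had 4168 ChIP reads against 3294 input reads in lane 1, and 4163 ChIP reads against 3170 input reads in lane 2. Its ratio over both lanes was 0.933 (0.903 to 0.964), below the input level, though above it on each of 4 other scales, and 1.16 times (1.12 to 1.198) the median repeat. This row has the largest weight in the pooled value, but leaving it out changed that value little. The remaining 6 rows had a pooled ratio of 0.897 (0.861 to 0.934), against 0.919 (0.896 to 0.943) for all 7.

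ERVB4_3-LTR_MM had the lowest ratio of the group over both lanes, though not in lane 1. There were 307 ChIP reads against 270 input reads in lane 1, and 289 ChIP reads against 304 input reads in lane 2. The summed counts of 596 ChIP reads and 574 input reads gave a ratio of 0.752 (0.669 to 0.844). Relative to the median repeat this was 0.934 (0.831 to 1.05), an interval that includes the median repeat. The ratio of ERVB4_2-LTR_MM was thus 2.12 times (1.75 to 2.56) that of ERVB4_3-LTR_MM and 1.70 times (1.46 to 1.99) that of ERVB4_1-LTR_MM. The sources used here do not state how a read that matches several of these LTRs was assigned, so the division of reads between the 3 rows is uncertain.

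ERVB3_1-LTR_MM, the only row of its family, had 362 ChIP reads against 282 input reads in lane 1, and 378 ChIP reads against 250 input reads in lane 2. Its ratio of 1.01 (0.899 to 1.13) had an interval that included the input level, while on each of 4 other scales its interval lay above it. It was 1.25 times (1.12 to 1.40) the median repeat, and 75 of 704 analysed repeats had a higher ratio. The lanes fell on either side of 1, at 0.924 (0.789 to 1.08) and 1.10 (0.936 to 1.30).

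The ERVB5 LTR rows lay with the bulk of repeats. ERVB5_1-LTR_MM had 350 ChIP reads against 326 input reads in lane 1, and 353 ChIP reads against 286 input reads in lane 2. The ratio over both lanes was 0.831 (0.745 to 0.928). ERVB5_2-LTR_MM had 660 ChIP reads against 605 input reads in lane 1, and 646 ChIP reads against 592 input reads in lane 2, a ratio of 0.790 (0.730 to 0.855) over both. Relative to the median repeat they stood at 1.03 (0.926 to 1.15) and 0.981 (0.907 to 1.06), and neither interval excluded it. Pooled, the 3 ERVB4 rows had a ratio 1.17 times (1.09 to 1.26) that of the 2 ERVB5 rows, and without ERVB4_2-LTR_MM this was 1.14 times (1.06 to 1.23). Both comparisons were chosen after the values were seen. The ERVB4 value was mostly that of ERVB4_1-LTR_MM. Over both lanes ERVB4_3-LTR_MM was lower than both ERVB5 rows, by less than counting error, and the lanes disagreed on this. In lane 1 ERVB4_3-LTR_MM was above ERVB5_1-LTR_MM and ERVB5_2-LTR_MM, at 0.819 against 0.773 and 0.785. In lane 2 it was below them, at 0.692 against 0.898 and 0.794.

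MMTV-int, the internal row that carries the viral genes, had 603 ChIP reads against 494 input reads in lane 1, and 658 ChIP reads against 505 input reads in lane 2. Its ratio was 0.879 (0.779 to 0.992) in lane 1 and 0.948 (0.843 to 1.07) in lane 2. Over both lanes, 1261 ChIP reads against 999 input reads gave 0.914 (0.840 to 0.994), just below the input level, though on each of 4 other scales the value lay above 1, on 2 of them with an interval that included 1. The row lay above the median repeat, at 1.14 times (1.04 to 1.23) its ratio, and 135 of 704 analysed repeats had a higher one.

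Ordered by ratio, ERVB4_2-LTR_MM was followed by ERVB3_1-LTR_MM, ERVB4_1-LTR_MM, MMTV-int, ERVB5_1-LTR_MM, ERVB5_2-LTR_MM and ERVB4_3-LTR_MM. Of the 6 pairs of neighbours in this order, 1 differed beyond counting error: ERVB4_2-LTR_MM had 1.58 times (1.31 to 1.91) the ratio of ERVB3_1-LTR_MM. All 21 pairs of rows were compared, and 14 had an interval of the ratio of ratios that excluded 1, with no adjustment for the number of pairs. ERVB4_2-LTR_MM took part in 6 of these 14, exceeding each other row by 1.58 to 2.12 times. The other 8 were pairs of ERVB3_1-LTR_MM, ERVB4_1-LTR_MM or MMTV-int with one of the 3 lowest rows. ERVB3_1-LTR_MM, for example, had 1.34 times (1.14 to 1.58) the ratio of ERVB4_3-LTR_MM. The interval nearest to 1 was that of ERVB4_1-LTR_MM over ERVB5_1-LTR_MM, at 1.12 (1.0002 to 1.26). MMTV-int and ERVB5_1-LTR_MM were not separable, at 1.10 (0.956 to 1.26). Within the 3 lowest rows no pair was separable.

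**Figure D2:**
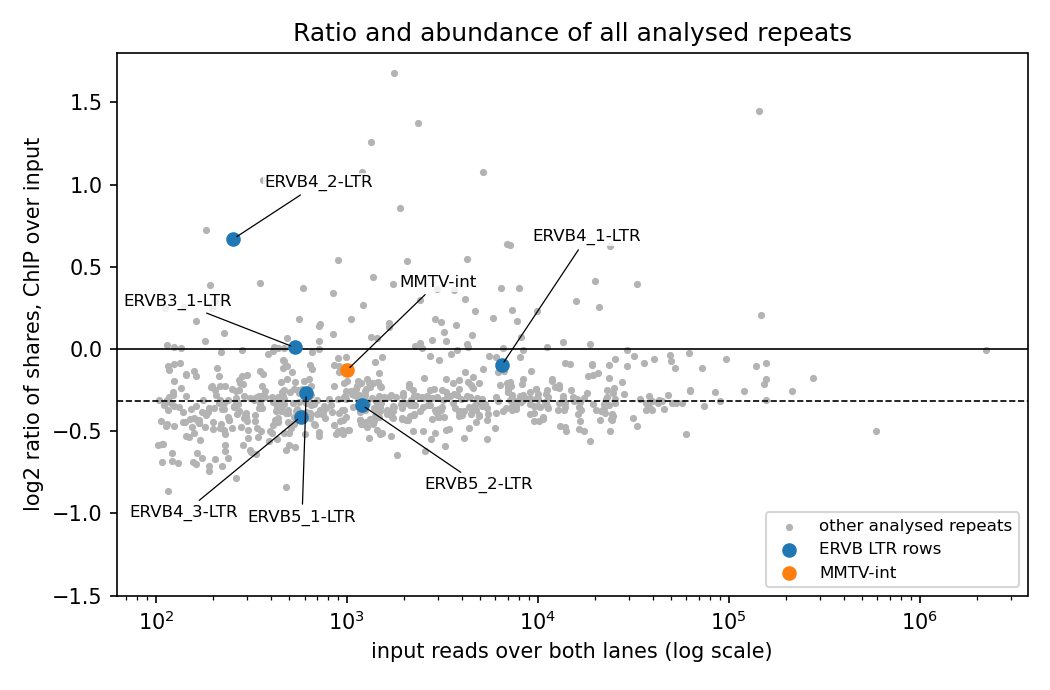
Log2 ratio of ChIP to input shares (vertical axis) against input reads over both lanes (horizontal axis, log scale) for 704 analysed repeats, with ERVB LTR rows in blue, MMTV-int in orange and all other repeats in grey. The solid line is a log2 ratio of 0 and the dashed line the median repeat at -0.31, and 2 repeats lie outside the plotted range. ERVB4_2-LTR_MM, at 0.67, is the member with the fewest input reads, and ERVB4_1-LTR_MM, at -0.10, the one with the most.

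The lanes gave the same 4 highest rows in the same order, while the order of the 3 lowest changed. For all 7 rows the interval of the lane difference included 0, and the largest difference in log2 ratio, lane 1 minus lane 2, was -0.25 (-0.58 to 0.079) for ERVB3_1-LTR_MM. Every one of the 14 separable pairs had the same direction in each lane. These pairs were picked on the sum of the lanes, so this is no independent check, and some pairs that were not separable also had it. The count of rows with an interval below 1 was 5 in lane 1 and 2 in lane 2.

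The authors' deposited table gives its own log2 ratio and interval for each lane, on a scale that lies 0.17 above the one used here. The brackets in this paragraph are the authors' own bounds and not 95% intervals. In the authors' deposited table ERVB4_2-LTR_MM had a log2 ratio of 0.79 (0.553 to 1.035) in lane 1 and 0.89 (0.624 to 1.163) in lane 2. It was the only member whose deposited interval lay above 0 in both lanes. In the authors' deposited table ERVB5_2-LTR_MM was the only member with an interval below 0 in both, at -0.18 (-0.314 to -0.046) and -0.16 (-0.299 to -0.029). MMTV-int had a deposited interval that spanned 0 in each lane of the authors' deposited table, at -0.018 (-0.162 to 0.126) and 0.092 (-0.048 to 0.232).

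Internal and LTR sequence did not differ in this group beyond counting error. MMTV-int had a ratio of 0.914 (0.840 to 0.994) and the 6 LTR rows pooled had 0.919 (0.895 to 0.944), from 12234 ChIP reads against 9633 input reads. Internal over LTR was therefore 0.994 (0.910 to 1.09), at 0.976 in lane 1 and 1.01 in lane 2. It was 1.02 (0.931 to 1.13) without ERVB4_1-LTR_MM and 1.01 (0.928 to 1.11) without ERVB4_2-LTR_MM. The comparison sets 1 internal row of MMTV against LTRs of ERVB families, so it does not compare the parts of one element. The 6 LTR rows spanned ratios from 0.752 to 1.59, and MMTV-int fell inside that span.

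For comparison, pooled reads of 3 other sets of retroviral rows of the same class were used. These were the intracisternal A particle (IAP) rows, the ERVB7 and early transposon (ETn) rows, and the RLTR10 rows. They were chosen by name and do not hold every row of the class. The values below therefore do not place the ERVB and MMTV rows within the class as a whole. The pooled ratio of the ERVB and MMTV rows was 0.399 times (0.389 to 0.410) that of 15 IAP rows, 0.730 times (0.710 to 0.751) that of 3 ERVB7 and ETn rows and 0.749 times (0.728 to 0.770) that of 8 RLTR10 rows. IAPEz-int held 69.0% of the IAP input reads, and without it the value against IAP was 0.682 times (0.663 to 0.701), an alternative chosen after seeing the data. By rows, the median log2 ratio was -0.13 for the ERVB and MMTV rows, against 0.30 for IAP, 0.40 for ERVB7 and ETn and 0.18 for RLTR10. Among LTR rows alone the ERVB rows had 0.529 times (0.512 to 0.545) the pooled ratio of the IAP LTRs, 0.863 times (0.832 to 0.895) that of the ERVB7 and ETn LTRs and 0.793 times (0.769 to 0.817) that of the RLTR10 LTRs. MMTV-int in turn had 0.385 times (0.354 to 0.419), 0.694 times (0.637 to 0.755) and 0.686 times (0.630 to 0.748) the ratio of the internal rows of these families, in the same order. Against the internal IAP rows without IAPEz-int it was 0.815 times (0.748 to 0.887).

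In pooled reads, internal over LTR was 1.36 (1.34 to 1.39) for IAP, 1.24 (1.202 to 1.27) for ERVB7 and ETn and 1.15 (1.12 to 1.17) for RLTR10. The IAP value rested on IAPEz-int, which held 77.8% of the internal IAP input reads: without it internal over LTR was 0.645 (0.632 to 0.658). With IAPEz-int included, the median log2 ratio was 0.26 for the internal IAP rows against 0.58 for the IAP LTR rows. In the ERVB7 and ETn rows the single internal row, with a log2 ratio of 0.40, lay below ERVB7_1-LTR_MM at 0.53. The value of the ERVB and MMTV rows was 0.729 times (0.667 to 0.796) the pooled value of IAP with IAPEz-int included. Without IAPEz-int the IAP value of 0.645 lay below the 0.994 of the group. Against ERVB7 and ETn it was 0.804 times (0.733 to 0.881) and against RLTR10 0.866 times (0.791 to 0.947). The brackets of these comparisons are 95% Wald intervals on the log scale. The IAP, ERVB7 and ETn, and RLTR10 sets also pool rows of different elements, so the values compare read totals and not the parts of one element.

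**Figure D3:**
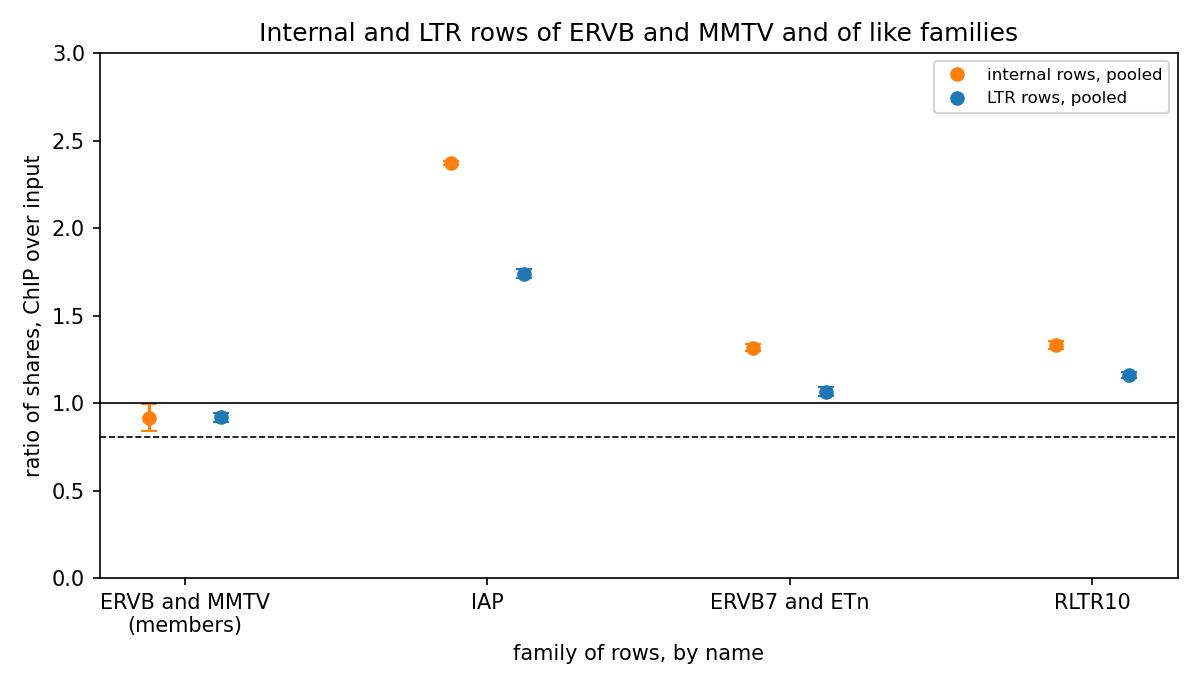
Pooled ratio of ChIP to input shares (vertical axis, no unit) of internal rows (orange) and LTR rows (blue) for the ERVB and MMTV rows and for families of the same class, with 95% counting intervals. The families shown were chosen by name and do not cover the class. The solid line is a ratio of 1 and the dashed line the median of 704 analysed repeats at 0.805. Both ERVB and MMTV values, 0.914 and 0.919, lie between the lines, while the IAP, ERVB7 and ETn, and RLTR10 values lie above 1.

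ERVB4_2-LTR_MM was also set against the LTRs of these families, a comparison made after its value was seen. The ratio of ERVB4_2-LTR_MM was 0.914 times (0.786 to 1.07) the pooled ratio of the IAP LTRs. It was 1.10 times (0.937 to 1.29) that of the single row ERVB7_1-LTR_MM, the LTR of the related ERVB7 family. Both of these intervals include 1 and are wide, which does not show that the levels are equal. The 10 IAP LTR rows themselves ran from 1.00 to 3.20. Its ratio was 1.49 times (1.28 to 1.74) that of the pooled ERVB7 and ETn LTRs and 1.37 times (1.18 to 1.60) that of the pooled RLTR10 LTRs. The other 5 ERVB LTR rows of the group had a ratio of 1.01 or lower.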

How the data were processed

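The authors deposited raw read counts per repeat type, ChIP and input side by side, as 1 table for each of 2 lanes. Bowtie 1.0.0 and the genome mm9 are named in the submitters' processing notes. The sources used here state neither the rule that assigned reads to repeat types nor the treatment of duplicates, and rows have no coordinates. The log2 ratios in the authors' deposited table equal the log2 of the counts, each raised by 0.5, less 1 constant per lane (0.31 and 0.29), to within 0.00053.

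Lane 1 held 6204712 reads of the ChIP and 4467116 of the input, and lane 2 held 6030765 and 4389635. Lanes were summed and ratios scaled by table totals. Ratios have 95% conditional Clopper-Pearson intervals, and ratios of ratios have exact conditional intervals of the odds ratio (scipy 1.17.1), both tested on simulated data. The simulated counts were independent, as the intervals assume, and the odds ratio was tried at a single setting. The simulation therefore does not cover duplicated reads or reads that match several rows. The deposited scale is the read-weighted mean of the lane constants. Every member with at least 100 input reads is named. The members and lists were chosen with earlier results of these data known. Alternatives were single lanes, 4 other scalings, 2 other read minimums and 1 added read, and pooling without single rows was added after the values were seen. No sequence of these repeats was used.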

Additional observations from a re-analysis of the deposited data

How the results depend on the processing

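Changing the scale between libraries shifts all log2 ratios together. The shift was 0.31 where the median repeat was put at 1, 0.29 where 63 old repeat rows (MIR, L2 and DNA transposons) were put at 1, 0.20 when the 5 most abundant repeats were left out of the totals and 0.17 on the deposited scale. Ratios between rows do not depend on it. On these 4 scales, in that order, the pooled log2 ratio of the ERVB and MMTV rows turned to 0.19, 0.17, 0.080 and 0.046, and that of the LTR rows to 0.19, 0.17, 0.081 and 0.047. That of MMTV-int, which is the internal value and also the median of the rows, turned to 0.18, 0.16, 0.072 and 0.038, and that of ERVB4_1-LTR_MM to 0.21, 0.19, 0.10 and 0.068. ERVB5_1-LTR_MM turned to 0.047 and 0.029 on the first and second of them. Rows with an interval above 1 numbered 4, 4, 3 and 3, and those below 1 numbered 0, 0, 2 and 2. ERVB3_1-LTR_MM, whose interval included 1, stood at 0.32, 0.30, 0.21 and 0.18 with intervals above 0. ERVB4_2-LTR_MM lay above 1 on every scale tried.

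Lane 1 alone left 2 rows with an interval above the median repeat and 1 row at 1.2 times its ratio or more. Lane 2 alone left 2 rows with an interval below 1 and gave a log2 difference of -0.41 from ERVB7 and ETn. With at least 1000 input reads only ERVB4_1-LTR_MM and ERVB5_2-LTR_MM remained, MMTV-int having 999, so no internal value could be had. Of them 0 lay above 1, 2 lay below 1, 1 lay above the median repeat and 0 reached 1.2 times its ratio. Without ERVB4_1-LTR_MM the pooled log2 ratio of the LTR rows was -0.17. Without IAPEz-int the log2 difference from IAP was -0.55. No read minimum, and 1 read added, moved none of these values beyond counting error. No paired analysis was possible because each group has 1 sample. Depth limits the rows with few reads most: ERVB4_2-LTR_MM rests on 254 input reads.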

Other observations

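SRV_MM-int, an internal row named after a simian betaretrovirus that the name rule did not take, had 1195 ChIP reads against 1166 input reads. It was picked by name after the other values were known. Its ratio was 0.742 (0.684 to 0.805), which is 0.922 times (0.850 to 1.00) that of the median repeat. MMTV-int had a ratio 1.23 times (1.10 to 1.39) that of SRV_MM-int, a log2 difference of 0.26 in lane 1 and 0.34 in lane 2, so these internal rows differed beyond counting error.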
